A study of Salmo salar with 48 samples.

Results

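The comparison described here asks what moderate hypoxia added to warming did to DNA methylation in the liver of juvenile Atlantic salmon after 4 weeks at the highest temperature. It used 16 of the 48 fish of the study, namely 8 warm hypoxic and 8 warm normoxic fish, taken by their labels for treatment and time and not by any methylation value. All came from the commercial broodstock of an aquaculture company (St. John River strain) and carried no engineered allele. The warm normoxic fish were warmed from 12 to 20 °C at 1 °C per week in water at 100% air saturation. The warm hypoxic fish were first brought down to 70% air saturation, kept there for 2 weeks, and then taken through the same warming at 70%. Both groups then stayed at 20 °C for 4 weeks, so the warming was common to them and the oxygen level, with its earlier start, was what differed. The warm hypoxic fish were 2 males and 6 females from tanks T1 and T6, and the warm normoxic fish were 5 males and 3 females from tanks T2 and T5, with 4 fish per tank. Since each treatment had its own 2 tanks, treatment and tank cannot be told apart, and p-values over fish measure the spread between fish and not between tanks.

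In vertebrate DNA, methylation is found mainly on the cytosine of CpG dinucleotides. Dense stretches of CpGs at gene starts are usually free of it, while most CpGs elsewhere carry it, and methylation at a gene start is generally associated with low transcription. DNA methyltransferases add the mark and keep it through cell division. TET enzymes, which begin its removal by oxidising it, need molecular oxygen, and this is why low oxygen is a condition of interest for DNA methylation. The liver of a fish is the centre of its metabolism and is made mostly of hepatocytes. A level measured in a piece of liver is the share of DNA copies, over all its cells, that were methylated at a CpG, so more cells of a type and more methylation per cell cannot be told apart.

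The measurement was bisulfite amplicon sequencing, in which unmethylated cytosine is converted and read as thymine while methylated cytosine is still read as cytosine. A cytosine that escaped conversion is also read as methylated, and its share could not be measured from CpG calls alone. Calls were present in every fish at 107 CpGs in 7 short regions, all on the plus strand. Of these, 94 CpGs in 6 regions had at least 30 calls in each of the 16 fish and were tested, and the fewest calls at a tested CpG in any fish was 183. The total per fish ran from 1939550 to 4082721 calls in warm hypoxic fish and from 2824806 to 4890736 in warm normoxic fish (exact permutation p = 0.117 for the difference in log2 totals, n = 8 each). Amplified reads are not independent molecules, so any error drawn from read counts covers counting only.

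Regions are named here by the chromosome of the reference the calls were placed on, since no gene annotation of that build was used. Region ssa03 spanned positions 13688232 to 13688647 of NC_027302.1 and held 16 CpGs. Chromosome ssa04 (NC_027303.1) held a pair of regions, one near 35 Mb at positions 35435825 to 35436217 with 18 CpGs and one near 45 Mb at positions 44947109 to 44947524 with 15 CpGs. Region ssa09 lay at positions 121687029 to 121687311 of NC_027308.1 and held 8 CpGs. Region ssa14 lay at positions 33502562 to 33502977 of NC_027313.1 and held 14 CpGs, and ssa16 at positions 37941696 to 37942102 of NC_027315.1 held 23. The seventh region, ssa15, at positions 46698401 to 46698820 of NC_027314.1, held 13 CpGs, was read too thinly to be tested and is described last.

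The 6 tested regions fell into separate classes of methylation in both groups. Region ssa09, with the fewest CpGs per length (2.83 per 100 bp), was almost fully methylated, its warm hypoxic fish averaging 92.2% ± 0.916 and its warm normoxic fish 92.8% ± 1.28 (SD, n = 8 each). The 35 Mb region of ssa04 was methylated in part, with single CpGs from 2.63% to 63.0% on average over the 16 fish. The other regions were nearly unmethylated, among them ssa16, the densest of the tested regions, with 5.65 CpGs per 100 bp and a mean level of 0.555% ± 0.0522 in warm hypoxic fish (SD, n = 8). Levels did not follow density over all 6 regions. The partly methylated 35 Mb region had 4.58 CpGs per 100 bp. The nearly unmethylated ssa03, ssa04 (45 Mb) and ssa14 were sparser, at 3.85, 3.61 and 3.37. Median depth over CpGs differed as much as the levels did, from 412 calls per CpG at ssa03 to 79267 at the 35 Mb region of ssa04.

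**Figure D1:**
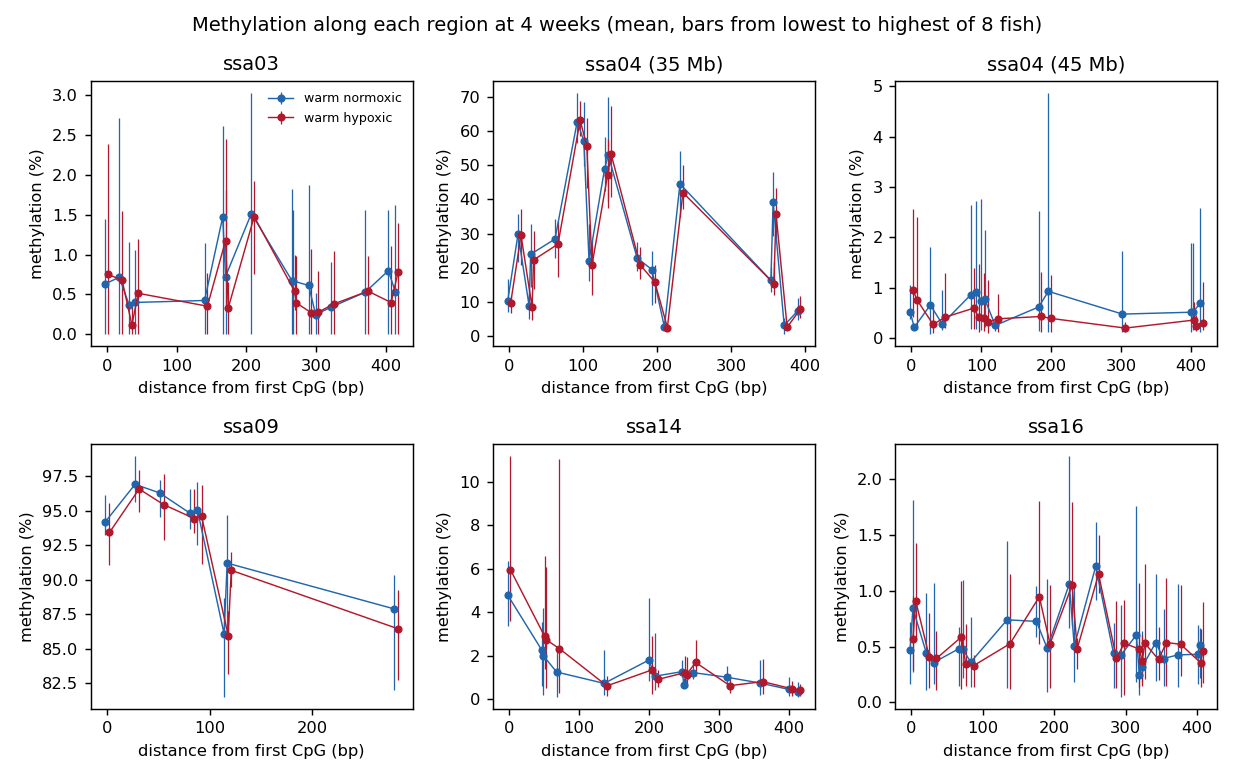
Mean methylation level (percent) at each tested CpG against its distance in bp from the first CpG of the region, for 8 warm hypoxic and 8 warm normoxic fish at 4 weeks, with bars from the lowest to the highest fish and a separate axis for each region. The 8 CpGs of ssa09 have the same order by mean level in both groups, and at every CpG of the 6 regions the bars of the groups overlap.

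No CpG passed the test of warm hypoxic against warm normoxic fish. In the exact permutation test over all 12870 splits of the 16 fish, 0 of 94 CpGs (0%) had an adjusted p (Benjamini-Hochberg) under 0.05. The smallest adjusted p in that exact test was 0.774. Before adjustment 3 of 94 CpGs (3.19%) were under 0.05, of which 1 (1.06%) was lower and 2 (2.13%) were higher in warm hypoxic fish. Limma fits on M-values, the log2 ratio of methylated to unmethylated calls, also passed 0 CpGs, with 4 under 0.05 before adjustment and 10 when the tank was kept as a block. The estimated correlation within tanks was -0.0953. A negative value narrows the error of a difference between treatments, so the larger count is not stronger evidence. At 0 of 94 CpGs (0%) did the 8 levels of one group lie wholly apart from those of the other.

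The differences at single CpGs were small. The mean was lower in warm hypoxic fish at 61 CpGs and higher at 33, with a median difference (always warm hypoxic minus warm normoxic) of -0.120 percentage points and a range of -3.65 to 1.16 points. At 82 of the 94 CpGs the difference was under 1 point in size. These counts describe CpGs that share amplicons and reads.

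**Figure D2:**
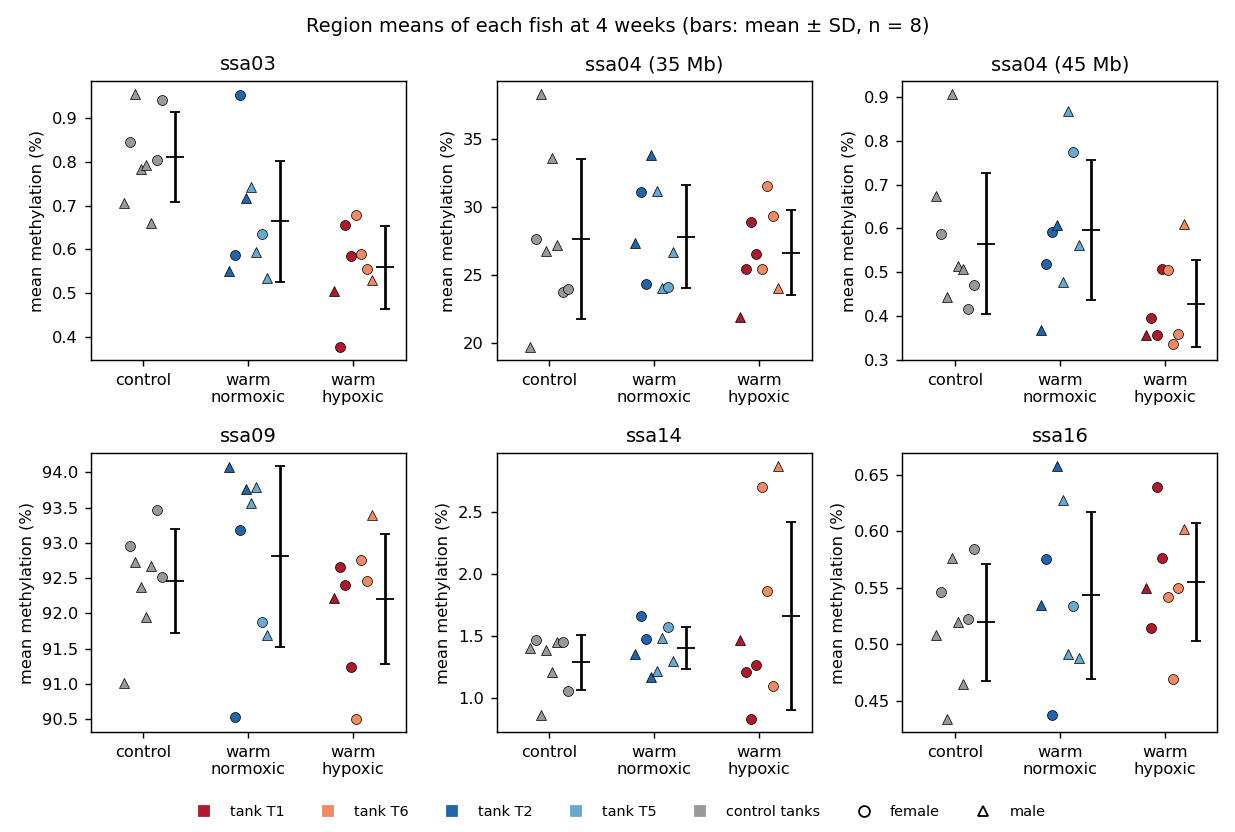
Mean methylation level (percent) over the tested CpGs of each region in single fish at 4 weeks, with control, warm normoxic and warm hypoxic fish side by side (8 each), the group mean, and a separate axis for each region. The warm hypoxic and warm normoxic fish overlap in all 6 regions, and in ssa14 the highest warm hypoxic fish, at 2.87%, lies above the highest warm normoxic fish, at 1.66%.

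Of the region means, 0 of 6 (0%) passed at an adjusted p under 0.05 in the exact permutation test. The value nearest to the threshold belonged to the 45 Mb region of ssa04, a nearly unmethylated region. The level of warm hypoxic fish there ran from 0.335% to 0.611% with a median of 0.377%, and that of warm normoxic fish from 0.369% to 0.867% with a median of 0.576%. Of the 8 warm hypoxic fish, 4 lay below the lowest warm normoxic fish and 7 below the warm normoxic mean, and fish 120 was the exception. Of the 8 warm normoxic fish, fish 114 and 115 of tank T5 lay above the highest warm hypoxic fish, and fish 101 of tank T2 was the lowest of its group. The difference of means was -0.168 points (SE 0.0667, n = 8 each), with an exact permutation p of 0.0246 and an adjusted p of 0.147 over the 6 regions.

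High levels in this region were isolated. The median over the 15 CpGs of a fish was 0.223% in the median warm hypoxic fish and 0.267% in the median warm normoxic fish, and a few CpGs of a fish exceeded 1%. Levels over 1% occurred in 13 of 120 pairs of CpG and fish in the warm hypoxic group and in 20 of 120 in the warm normoxic group. They occurred in 17 of 120 in the control fish of the same time, which were kept at 12 °C and 100% air saturation. Of these 17, control fish 108 alone held 5, although its median over the 15 CpGs was 0%. It thus held no methylated call at most of the 15 CpGs, while each of the 16 fish held some at all of them. Its levels over 1% may each rest on a few methylated calls, and its depth here is not given. The highest level among the 16 fish was 4.86%, at position 44947307 in warm normoxic fish 114. When the median over the 15 CpGs of a fish stood in for the mean, the groups were -0.0663 points apart, with an exact permutation p of 0.112 and an adjusted p of 0.506. Without warm normoxic fish 101 the difference of means was -0.2004 points and passed, with an exact permutation adjusted p of 0.0382. This was the lowest adjusted p over the 16 fish left out in turn. The highest was 0.275, and no other single fish left out gave a pass. Fish 101 and 120 also held the most calls outside the regions of the 16 fish, and without both the difference was -0.226 points, with an exact permutation adjusted p of 0.0140. That exclusion was chosen after seeing the data. Fish 120 was the highest warm hypoxic and fish 101 the lowest warm normoxic fish of this region, so leaving them out could only widen the difference. Without tank T5 it was -0.0937 points (exact permutation, adjusted p = 0.448). The control fish averaged 0.565% ± 0.161 (SD, n = 8). This lay between the warm hypoxic mean of 0.428% and the warm normoxic mean of 0.596% ± 0.160. Control fish 108 was the highest, at 0.908% with a median of 0% over its CpGs, so its mean may also rest on few methylated calls. The next was fish 105 at 0.675%.

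Within the 45 Mb region the CpGs did not all lean the same way. At position 44947115 the level was higher in warm hypoxic fish, which ran from 0.175% to 2.40% with 4 fish above 0.7%, while all 8 warm normoxic fish lay between 0.156% and 0.244%. The means were 0.756% ± 0.737 and 0.213% ± 0.0350, or 0.543 points apart (95% interval 0.0616 to 1.10; SD, n = 8 in each group; exact permutation p = 0.0165, adjusted p = 0.774). Fish 120 alone held the value of 2.40%, and 3 warm hypoxic fish lay within the warm normoxic range. The same position had 0.893% on average in the control fish of 4 weeks, and at 3 days its difference between warm hypoxic and warm normoxic fish was -0.370 points. The neighbouring position 44947109 had 0.958% ± 0.749 against 0.524% ± 0.228 (SD, n = 8 in each group, exact permutation p = 0.141), with warm hypoxic fish 99 at 2.57% as its highest.

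Further along the region, at the twelfth of its CpGs, position 44947413 was lower in warm hypoxic fish, at 0.198% ± 0.0691 against 0.475% ± 0.529 (SD, n = 8 in each group, exact permutation p = 0.105). All 8 warm hypoxic fish lay between 0.126% and 0.309%, a range that also held 5 of the 8 warm normoxic fish, and warm normoxic fish 104 stood at 1.72%. The CpG with the lowest mean level, at position 44947231, had 0.383% ± 0.248 and 0.250% ± 0.0999 (SD, n = 8 each).

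**Figure D3:**
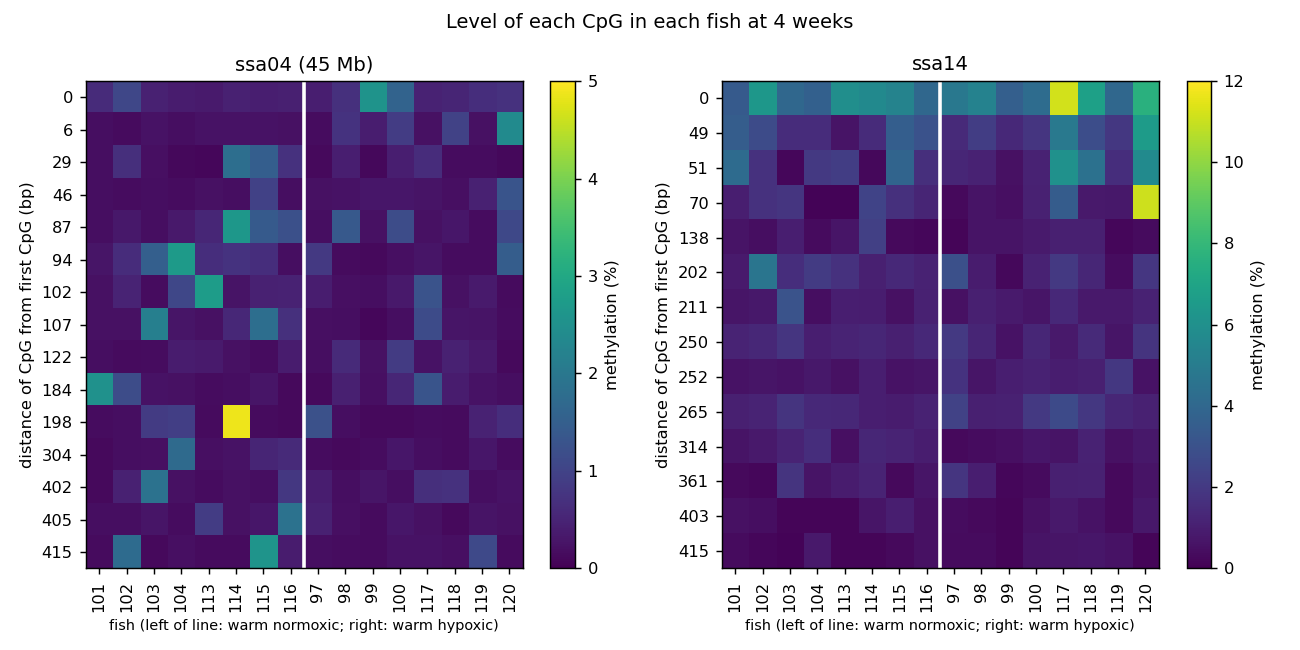
Methylation level (percent, colour) of each tested CpG (vertical, labelled by distance from the first CpG) in each of the 16 fish (horizontal) in ssa04 (45 Mb) and ssa14. Warm normoxic fish are left of the line and warm hypoxic fish right of it, and tanks are not marked. In ssa04 (45 Mb) levels over 1% are scattered over different CpGs in different fish, 13 of 120 values for warm hypoxic fish and 20 of 120 for warm normoxic fish. In ssa14 the highest values, up to 11.2%, sit in the first CpGs of fish from tank T6.

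Region ssa03 had the second smallest p. Warm hypoxic fish ran from 0.376% to 0.679% with a median of 0.570%, and warm normoxic fish from 0.534% to 0.953% with a median of 0.615%. The groups overlapped between 0.534% and 0.679%, with 3 warm hypoxic fish below all warm normoxic fish and 3 warm normoxic fish above all warm hypoxic fish. The means were -0.105 points apart, 95% interval -0.233 to 0.0170 (8 fish per group, exact permutation p = 0.0936, adjusted p = 0.281). Weighting fish by their calls moved it to -0.0149 points. The control fish of 4 weeks averaged 0.812% ± 0.103 (SD, n = 8), above both warmed groups.

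This was the shallowest of the tested regions, and its CpGs are known less well than those of the others. At the fewest calls, 183, a single methylated call was worth 0.546%. Of 256 pairs of CpG and fish, 60 held no methylated call, of which 25 were in the warm hypoxic group and 35 in the other, which allows levels of up to 0.394% to 1.62% by 3 calls of the total. The 3 CpGs with the smallest p were each lower in warm hypoxic fish. Position 13688404 had 0.332% ± 0.261 against 0.724% ± 0.645, and position 13688637 had 0.396% ± 0.364 against 0.797% ± 0.644 (SD, n = 8 in each group, exact permutation p = 0.134 and 0.146). Position 13688266, also the CpG with the lowest level of the region, had 0.113% ± 0.150 against 0.367% ± 0.457 (exact permutation p = 0.191), and 4 warm hypoxic and 3 warm normoxic fish held no methylated call there. All 3 are differences between means of 8 fish, whose median depth in this region ran from 186.5 to 2894.5 calls per CpG. The worth of a single call in the shallowest fish is thus no measure of their counting error. The highest CpG, position 13688441, had 1.48% ± 0.409 and 1.52% ± 1.04 (SD, n = 8 each).

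The 35 Mb region of ssa04 varied most between fish. Warm hypoxic fish ran from 21.9% to 31.5% with a median of 26.0%, and warm normoxic fish from 24.0% to 33.8% with a median of 27.0%. Each range covered most of the other, and only fish 97 (warm hypoxic, 21.9%) and fish 104 (warm normoxic, 33.8%) lay outside the other group's range. Warm hypoxic minus warm normoxic came to -1.18 points, 95% interval -4.94 to 2.56 (8 fish per group, exact permutation p = 0.4999, adjusted p = 0.5999), so a difference of a few points in either direction was not detectable with 8 fish per group. Depth in this region ran from 36083.5 to 153526 calls per CpG. Warm hypoxic fish had the lower mean at 15 of the 18 CpGs.

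The 18 CpGs of this region went up and down together within a fish. Fish 104 lay above the median of the 16 fish at 17 of its 18 CpGs, as did fish 102, and fish 113 and 118 did so at 16. Fish 114 lay above that median at 1 CpG, and fish 97 and 98 at 3. High and low fish of this kind were present in both groups. The 18 CpGs are thus not separate measurements of a fish.

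Position 35436020 of this region had the most negative difference of the 94 CpGs. Its level ran from 9.60% to 20.7% in warm hypoxic fish and from 9.09% to 24.9% in warm normoxic fish, in which fish 114 stood at 9.09% and the next lowest at 18.04%. The means were 15.8% ± 3.70 and 19.5% ± 4.78, or -3.65 points apart (95% interval -8.06 to 0.992; SD, n = 8 in each group; exact permutation p = 0.112, adjusted p = 0.906). Position 35436184 had 35.6% ± 4.52 against 39.2% ± 5.60 and position 35436000 had 20.9% ± 3.42 against 22.9% ± 3.23 (SD, n = 8 in each group, exact permutation p = 0.182 and 0.247). The most methylated CpG, position 35435919, had 63.2% ± 3.81 and 62.8% ± 4.87, and the least methylated, position 35436037, had 2.56% ± 0.818 and 2.70% ± 0.866.

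Region ssa09 was highly methylated in every fish. Warm hypoxic fish ran from 90.5% to 93.4% with a median of 92.4%, and warm normoxic fish from 90.5% to 94.1% with a median of 93.4%. The lowest fish of both groups were alike, and 4 warm normoxic fish lay above all warm hypoxic fish. Warm hypoxic minus warm normoxic came to -0.608 points, 95% interval -1.80 to 0.606 (8 fish per group, exact permutation p = 0.289, adjusted p = 0.576). Warm hypoxic fish had the lower mean at all 8 CpGs, with differences from -1.45 to -0.114 points, and none of the 8 passed. Within sex the difference of region means was -0.158 points (exact permutation p = 0.776).

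Among its CpGs, position 121687082 had 95.5% ± 1.37 against 96.3% ± 0.998, position 121687029 had 93.4% ± 1.47 against 94.2% ± 0.898, and position 121687311, the last of the region, had 86.5% ± 2.13 against 87.9% ± 2.74 (SD, n = 8 in each group, exact permutation p = 0.179, 0.228 and 0.257). The highest level of the region was at position 121687058, with 96.6% ± 1.00 and 96.9% ± 1.06. The lowest was at position 121687145, with 86.0% ± 1.58 and 86.1% ± 2.45. The 8 CpGs had the same order by mean level in both groups.

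In ssa14 the groups had close medians and ranges of unlike width. Warm normoxic fish were close together, from 1.18% to 1.66% with a median of 1.42%, and warm hypoxic fish ran from 0.831% to 2.87% with a median of 1.37%. The range of the warm hypoxic fish enclosed that of the warm normoxic fish, with fish 99 and 119 below it and fish 118, 117 and 120, all of tank T6, above it. The means were 1.66% ± 0.755 and 1.41% ± 0.171, or 0.256 points apart (95% interval -0.309 to 0.844; SD, n = 8 in each group; exact permutation p = 0.384, adjusted p = 0.576). The mean absolute deviation from the group median was 0.563 points in warm hypoxic and 0.143 points in warm normoxic fish. This difference in spread had an exact permutation p of 0.0292 and an adjusted p of 0.175 over the 6 regions, which missed the threshold. All splits were used, but the deviations were fixed beforehand from each group's own median, so every p for spread given here is approximate. Leaving out each of the 16 fish in turn gave exact permutation adjusted p from 0.0438 to 0.564. Only the lowest of these, without warm hypoxic fish 100, passed. With all 16 fish, the adjusted p for spread in the other 5 regions was 0.558. When the median over the CpGs of a fish stood in for the mean, the ssa14 difference in spread was 0.0176 points.

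The 2 warm hypoxic tanks had unlike means in this region. Tank T1 averaged 1.19% ± 0.266 and tank T6 2.13% ± 0.819 (SD, n = 4 each, exact permutation p = 0.114, where 0.0286 is the smallest that 4 against 4 fish can give). Without tank T6 the difference from warm normoxic fish was -0.214 points, and without tank T1 it was 0.726 points (exact permutation p = 0.0343, adjusted p = 0.206). The high values of tank T6 lay in the first 4 CpGs of the region, where fish 117 reached 11.2% at position 33502562 and fish 120 reached 11.1% at position 33502632. At position 33502562, the most methylated CpG of the region, the means were 5.96% ± 2.53 and 4.80% ± 1.16 (SD, n = 8 each). Values this high were not particular to tank T6 or to warmed fish. Control fish 84 of 3 days, from tank T3, averaged 2.90% in ssa14 and reached 13.3% at its highest CpG.

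Of the 3 CpGs with an unadjusted p under 0.05, ssa14 held a pair, and they leaned in opposite directions. At position 33502814 warm hypoxic fish ran from 0.572% to 1.94% and warm normoxic fish from 0.540% to 1.01%, and 5 of the 8 warm hypoxic fish lay above the highest warm normoxic fish. The means were 1.14% ± 0.476 and 0.683% ± 0.152, or 0.457 points apart (95% interval 0.0921 to 0.838; SD, n = 8 in each group; exact permutation p = 0.0135, adjusted p = 0.774). The 2 highest fish there, 119 and 97, came from different tanks, T6 and T1.

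At position 33502876, further along the region, warm hypoxic fish ran from 0.314% to 1.17% and warm normoxic fish from 0.506% to 1.55%. The means were 0.632% ± 0.267 and 1.02% ± 0.350, or -0.387 points apart (95% interval -0.720 to -0.0504; SD, n = 8 in each group; exact permutation p = 0.0284, adjusted p = 0.891), and 7 of 8 warm hypoxic fish lay below the warm normoxic mean. Between them, position 33502827 had 1.70% ± 0.648 and 1.23% ± 0.274 (exact permutation p = 0.0831). The least methylated CpG, position 33502977, had 0.456% ± 0.225 and 0.339% ± 0.236.

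Region ssa16, the most CpG-dense of the 6, had the narrowest interval. Warm hypoxic fish ran from 0.469% to 0.639% with a median of 0.55%, and warm normoxic fish from 0.437% to 0.658% with a median of 0.534%. The warm hypoxic range lay wholly inside the warm normoxic one. The means were 0.0121 points apart, 95% interval -0.0569 to 0.0812 (8 fish per group, exact permutation p = 0.708), and the CpGs divided into 12 lower and 11 higher in warm hypoxic fish. A region mean higher by more than 0.0812 points in warm hypoxic fish lies outside the interval.

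Its CpGs with the smallest p were all higher in warm hypoxic fish. Position 37942021 had 0.529% ± 0.330 against 0.316% ± 0.141, the adjacent position 37942017 had 0.370% ± 0.141 against 0.250% ± 0.1998, and position 37941873 had 0.946% ± 0.410 against 0.725% ± 0.182 (SD, n = 8 in each group, exact permutation p = 0.0999, 0.186 and 0.195). Position 37942017 was also the CpG with the lowest level of the region. The highest, position 37941956, had 1.15% ± 0.166 and 1.22% ± 0.232 (SD, n = 8 each).

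The same comparison could be read at 3 days, in other fish from the same 4 tanks, to see whether the differences of 4 weeks were already present on reaching 20 °C. The fish of 3 days were 5 males and 3 females in the warm hypoxic group and 4 males and 4 females in the warm normoxic group. This differs from the fish of 4 weeks, and the comparison of the times was not adjusted for sex. The 45 Mb region of ssa04 was lower in warm hypoxic fish at both times, by -0.0714 points at 3 days with a 95% interval of -0.203 to 0.0703, and by -0.168 points at 4 weeks. The 35 Mb region was lower at both times too, by -3.73 points at 3 days with a 95% interval of -8.91 to 1.64, with all 18 CpGs lower, and by -1.18 points at 4 weeks. Region ssa09 leaned the other way at 3 days, by 0.926 points with a 95% interval of -0.576 to 2.56. Of its 8 CpGs, which share reads, 0 were lower in warm hypoxic fish at 3 days against all 8 at 4 weeks. Warm normoxic fish 77 was the lowest there at 3 days, at 87.7%, and the next lowest of its group was fish 79 at 91.05%. Region ssa03 differed by 0.0663 points at 3 days and by -0.105 points at 4 weeks.

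No region's difference changed between 3 days and 4 weeks past the threshold. In a permutation test of residuals (100000 resamples, two-sided) under a model in which treatment and time add up, the change was -0.171 points at ssa03 (p = 0.0794, adjusted p = 0.302 over the 6 regions). By the same permutation test it was -1.53 points at ssa09 (p = 0.101, adjusted p = 0.302). In the other 4 regions the permutation p adjusted over the 6 regions was at least 0.472. Of the 94 CpGs, 56 had a difference of the same sign at both times.

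**Figure D4:**
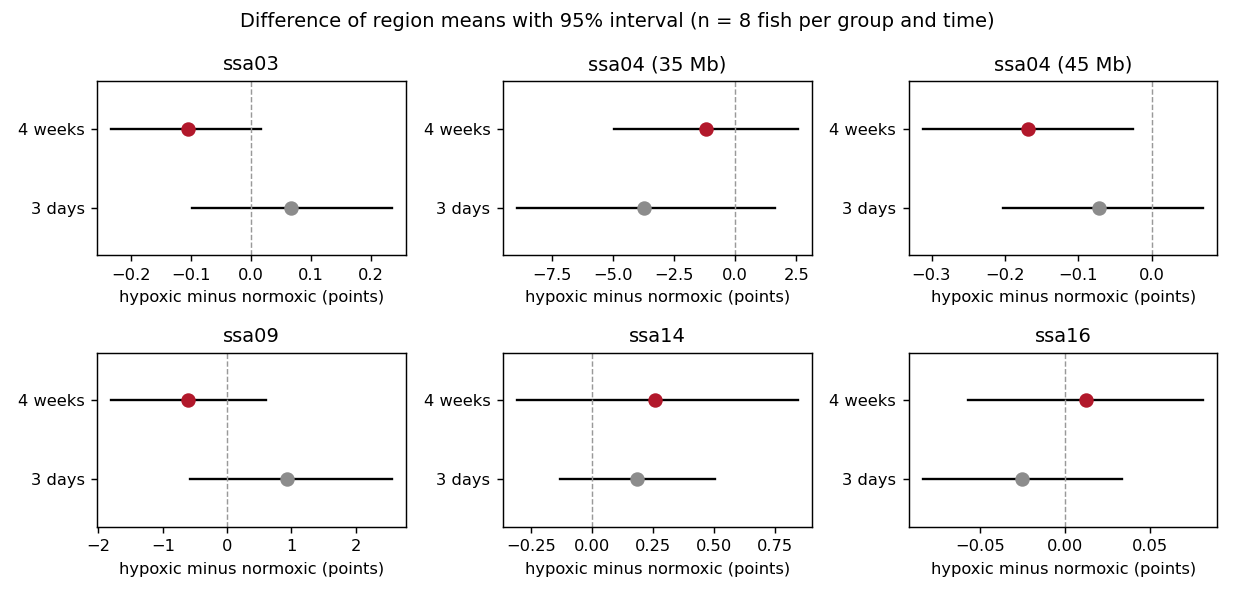
Difference between the mean levels of warm hypoxic and warm normoxic fish (percentage points, negative where warm hypoxic fish were lower) for each region at 4 weeks and at 3 days, with 95% intervals from the exact permutation test (n = 8 fish per group and time) and a separate axis for each region. The interval at 4 weeks leaves out 0 in ssa04 (45 Mb), from -0.312 to -0.0262, and holds 0 in the other 5 regions. The intervals are not adjusted for the number of regions, and the exact permutation adjusted p of ssa04 (45 Mb) was 0.147.

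Tanks of the same treatment gave a background for these differences. In the 45 Mb region of ssa04, tanks T2 and T5 of the warm normoxic fish averaged 0.522% ± 0.109 and 0.671% ± 0.181, and tanks T1 and T6 of the warm hypoxic fish 0.404% ± 0.0719 and 0.453% ± 0.129 (SD, n = 4 each). Both warm hypoxic tanks lay below both warm normoxic tanks, and the warm normoxic tanks were 0.148 points apart, close to the 0.168 points between treatments. At ssa03 the warm hypoxic tanks, at 0.531% and 0.589%, also lay below the warm normoxic tanks, at 0.702% and 0.627%. The same held at ssa09, with 92.1% and 92.3% against 92.9% and 92.7%, and in no other tested region. An exact permutation over the 6 splits of 4 tanks can give no p under 0.333, so such a separation is not rare. None of the 12 contrasts between tanks of the same treatment passed (exact permutation, adjusted p = 0.886 for each). With 4 against 4 fish no p can fall under 0.0286, so a lone contrast could not pass after adjustment over 12. This outcome does not show that the tanks were alike. With the 4 tank means as the unit in limma, the adjusted p over regions was 0.469 for ssa04 (45 Mb) and ssa03 and 0.573 for ssa09.

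The groups also differed in sex, with 2 males among the warm hypoxic and 5 among the warm normoxic fish. In the 35 Mb region of ssa04 the 2 warm hypoxic males averaged 23.0% ± 1.53 and the 5 warm normoxic males 28.6% ± 3.87, while the 6 warm hypoxic females averaged 27.9% ± 2.45 and the 3 warm normoxic females 26.5% ± 3.96 (SD). The difference was -5.62 points in males and 1.35 points in females, and the permutation p of the difference between them was 0.0503 (adjusted p = 0.291 over the 6 regions, a test added after the data were seen). Compared within sex, the 45 Mb region of ssa04 differed by -0.167 points and ssa03 by -0.134 points (exact permutation over 1764 splits, p = 0.0454 and 0.0442, adjusted p = 0.136 for both).

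Region ssa15 could not be compared for methylation, and its depth itself differed between the groups. The median over CpGs ran from 3 to 63 calls in warm hypoxic fish with a group median of 20, and from 16 to 2826 calls in warm normoxic fish with a group median of 227. All but 1 of the warm normoxic fish lay above every warm hypoxic fish. The geometric mean depth was 22.4-fold higher in warm normoxic fish (n = 8 each, exact permutation p = 0.00124, adjusted p = 0.00870 over the 7 regions, a test chosen after the depths were seen), and the control fish of 4 weeks had a median of 18.5 calls. In none of the other 6 regions did depth differ past the threshold (exact permutation, adjusted p from 0.378 to 0.879). Since 30 calls at every CpG were reached by 2 warm hypoxic and 7 warm normoxic fish, the levels are given only as values, from 1.84% to 2.18% in the former and from 1.53% to 3.25% in the latter.

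**Figure D5:**
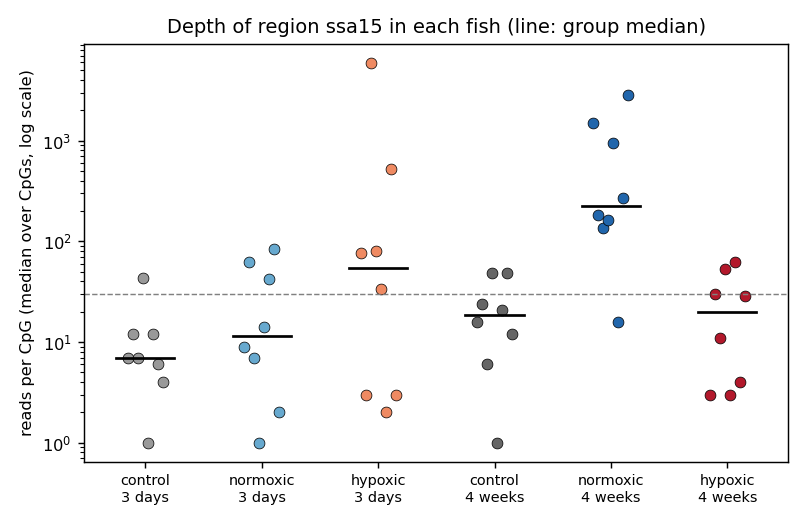
Median number of calls per CpG in region ssa15 (vertical, log scale) in each fish of the 6 groups of the study (8 fish each), with a line at each group median and a dashed line at 30 calls. The warm normoxic fish of 4 weeks have a median of 227 calls and the warm hypoxic fish of 4 weeks a median of 20.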

How the data were processed

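Liver DNA of 48 fish was bisulfite-converted and sequenced as amplicons, per the labels' protocols, and 16 fish enter the main comparison. The deposited tables hold, per CpG and strand, the count of methylated and of unmethylated calls that the authors made from their reads. Tools named in the submitters' processing notes are Bismark 0.20.0, Bowtie2, MultiQC 1.9 and Trim Galore 0.4.4, without settings. The genome build is not given in the sources used here, and positions are those of the tables.

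The level of a CpG in a fish was methylated calls over all calls, fish were weighted equally, and CpGs with at least 30 calls in all 16 fish were tested. CpGs under 1000 bp apart formed a region, whose value in a fish was the mean over its CpGs. Groups were compared by two-sided exact permutation over all 12870 splits of 8 against 8 fish with Benjamini-Hochberg adjustment (threshold 0.05), over 94 CpGs or 6 regions. The 95% intervals came from inverting that test without adjustment. Spread, tanks (70 splits) and time (100000 resamples) were tested as described with their results. Python 3.11.15, numpy 2.4.6, scipy 1.17.1, pandas 2.3.3 and limma 3.58.1 under R 4.3.3 were used. M-values added 1 call to both counts. The tests were tried on simulated counts. The alternatives were other call minimums, weighting by calls, limma with and without a tank block, comparison within sex, and leaving out tanks or single fish.

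No 2 fish of a group had counts that matched within read-counting noise (lowest chi-square 51.9 per CpG), and the labels give each a fish number of its own, so each was counted as 1 sample. Repeat amplifications of the same DNA could also exceed that noise. All regions are named, and in each the 3 CpGs with the smallest p and those with the highest and lowest level. Other CpGs were named for single high values after these were seen. This comparison and its lists were chosen for description with earlier results of these data known, while the 16 fish follow from the labels. Labelled tissue could not be checked, since no expression was measured.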

Additional observations from a re-analysis of the deposited data

Results flagged for a closer look

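Single fish stood far from the other 7 of their group at some of the named CpGs. Of 66 sets of 8 values examined, 8 were picked out, all among the 54 sets of single CpGs and none among the 12 of region means. Chance picks out about 1 in 20 sets of independent, normally distributed values. These sets share amplicons and reads, were named for their p or level, and include skewed levels near 0, so that rate is no chance level for them. In ssa04 (35 Mb), warm normoxic fish 114 had 9.09% at position 35436020, against 18.04% in the next fish. In ssa04 (45 Mb), warm normoxic fish 102 had 1.06% at position 44947109, warm hypoxic fish 120 had 2.40% at position 44947115, and warm normoxic fish 104 had 1.72% at position 44947413. In ssa09, warm normoxic fish 103 had 96.1% at position 121687029 and warm normoxic fish 102 had 82.0% at position 121687311. In ssa16, position 37942021 was picked out in both groups, at 1.24% in warm hypoxic fish 99 and at 0.640% in warm normoxic fish 114.

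Region ssa15 lay outside the tested regions because of its depth, and its median of 227 calls per CpG in warm normoxic fish stood above the 18.5 calls of the control fish of 4 weeks.

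Calls outside the 7 regions were present in 3 of the 16 fish in larger numbers than in the control fish of 4 weeks, which had at most 1. Such calls were not particular to warmed fish, since the largest number in the study, 4029 calls at 158 CpGs, was in control fish 84 of 3 days, and control fish 88 of 3 days had 49. Warm hypoxic fish 120 had 2072 such calls at 91 CpGs, 85.5% of them methylated and 0.0674% of all its calls. Warm normoxic fish 101 had 960 at 194 CpGs, and warm hypoxic fish 118 had 68 at 24 CpGs. The part of such calls in the results was not tested. Leaving out fish 101 and 120 gave -0.226 points in ssa04 (45 Mb) (exact permutation, adjusted p = 0.0140). These were the lowest warm normoxic and the highest warm hypoxic fish of that region, so the exclusion could only widen the difference and is no test of the calls.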

How the results depend on the processing

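The count of CpGs past the threshold was 0 under all 30 alternatives, with 2 to 10 CpGs under an unadjusted p of 0.05. Without a tank, within sex, and without fish 101 and 120, the exact permutation had too few splits for a lone CpG to pass after adjustment. In those alternatives the count of 0 is thus weak evidence. Of 180 values of region means, 172 kept their direction and their side of the threshold. The ssa04 (45 Mb) difference passed without warm normoxic fish 101. Leaving out each fish gave -0.2004 to -0.129 points, with exact permutation adjusted p from 0.0382 to 0.275. It also passed without fish 101 and 120, an alternative chosen after seeing the data (-0.226 points). Fish 101 was the lowest warm normoxic and fish 120 the highest warm hypoxic fish there, so leaving them out could only widen the difference. Why these fish stood apart was not tested. The ssa14 spread passed only without warm hypoxic fish 100. Over single fish left out it was 0.271 to 0.472 points, with exact permutation adjusted p from 0.0438 to 0.564. With medians over CpGs the ssa14 spread difference was 0.0176 points.

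Directions turned as follows, none with an adjusted p under 0.05. Without tank T1, ssa16 was -0.00260 points, position 13688441 was 0.236, 35436037 was 0.0963 and 121687145 was 0.0149. Without tank T6, ssa14 was -0.214 points, position 35435919 was -0.510 and 33502562 was -0.297. Without tank T2, ssa04 (35 Mb) was 0.152 points, position 13688441 was 0.716 and 35436037 was 0.357. Without tank T5, position 35435919 was -1.10 points. Weighting by calls gave 0.0824 points at 13688441 and 0.0835 at 121687145, which within sex was 0.337. Medians over CpGs gave -0.0118 points at ssa14 and -0.0115 at ssa16, changes from 3 days to 4 weeks of -0.0485 and -0.0119, spread differences of 0.0117 at ssa03 and 0.185 at ssa09, and 0.889 for T1 minus T6 at ssa09. Without fish 101 and 120, positions 35436037 and 121687145 were 0.00536 and 0.120 points, the change at ssa14 was -0.108, T1 minus T6 was 0.00361 at ssa04 (45 Mb) and 0.224 at ssa09, and T2 minus T5 at ssa09 was -0.237. Limma on M-values gave a log2 difference of 0.17 at 13688441 with or without a tank block and on tank means.

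Leaving out single fish gave -0.255 to 0.178 points at 13688441, -0.764 to 0.283 at 121687145, -0.429 to 1.64 at 35435919, -0.347 to 0.106 at 35436037, -0.00298 to 0.0285 for ssa16 and -0.0498 to 0.00743 for the ssa03 spread.

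No paired analysis was possible because each fish has a number of its own and the groups share none. Depth was lowest in ssa03 and ssa15. How far counting, amplification and variation between fish each limited the other regions was not tested.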
